A study of Mus musculus with 6 samples.

Results

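The cytosolic ribosomal protein genes were examined in smooth muscle cells of the mouse pulmonary artery (mPASMCs) in which the long noncoding RNA *Snhg18* was knocked down. Members were all protein-coding genes whose symbol is Rpl or Rps followed by a number, with or without further letters, together with *Rplp0*, *Rplp1*, *Rplp2* and *Rpsa*, and without the Rps6k kinase genes. This rule used names and no measured value, and it found 87 of the 55487 genes counted. Of these, 82 had enough reads to be tested and 5 (*Rpl3l*, *Rpl39l*, *Rpl10l*, *Rps23rg1* and *Rpl24*) did not. The pattern also takes in *Rps19bp1* and *Rps23rg1*, whose products are not ribosomal proteins, and it leaves out *Fau*, which encodes a ribosomal protein fused to a ubiquitin-like protein.

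RNA sequencing counts were available from mPASMCs transfected with a control siRNA (si-NC, 3 libraries) or with an siRNA against *Snhg18* (si-*Snhg18*, 3 libraries). The cells were commercial mPASMCs (Procell) at low passage, grown in DMEM with fetal bovine serum and transfected with Lipofectamine. The sources used here state neither the oxygen level nor the time after transfection for these libraries. Nothing states that the libraries of a group came from separate cultures, so the p-values measure only the spread between these libraries, which may be technical.

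The libraries held 18097718 to 25988746 counted reads, so that the detection floor used here, 3 reads, corresponds to 0.115 to 0.166 CPM before scaling (CPM scales each library's counts to a common total). *Snhg18* was at 23.5, 22.4 and 22.2 CPM with si-NC, against 10.6, 11.2 and 9.97 CPM after knockdown, a log2 fold change of -1.10 (SE 0.10, edgeR quasi-likelihood adjusted p = 0.00727). All 9 smooth muscle markers were tested, and *Tagln* fell (log2 fold change -0.51, edgeR adjusted p = 0.0427). Their summed level was 3649 to 3803 CPM in si-NC cells against 2735 to 3599 CPM in si-*Snhg18* cells. All 5 fibroblast markers were tested and none was called without the replicate block, with sums of 2765 to 3749 and 1591 to 2619 CPM. Of the 8 leukocyte markers, 3 were tested and *Cd53* fell (log2 fold change -1.10, edgeR adjusted p = 0.00727), while the defining marker *Ptprc* averaged 0.199 CPM and *Adgre1* and *Cd3e* had no read. The sums were 111 to 154 and 69.2 to 109 CPM. The endothelial sum was 12.4 to 14.0 and 13.3 to 15.4 CPM, with *Pecam1* at 0.333 CPM in si-NC cells, and the epithelial sum was 7.24 to 22.7 and 1.19 to 7.42 CPM. With the replicate number as a blocking factor, 5 smooth muscle markers (*Tagln*, *Cnn1*, *Cald1*, *Des* and *Myh11*), 3 fibroblast markers (*Thy1*, *Col1a1* and *Pdgfra*), 1 endothelial, 1 epithelial and 1 leukocyte marker fell and 1 leukocyte marker, *Cd14*, rose. The part of these markers in the results below was not tested. In bulk RNA, fewer cells of a type and less RNA per cell cannot be told apart.

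Each cytosolic ribosome is built from a small subunit, which reads the mRNA, and a large subunit, which joins the amino acids. Their proteins are made in near-equal numbers, and their mRNAs are among the most abundant in growing cells. Many of these mRNAs start with a run of pyrimidines, the 5′ terminal oligopyrimidine (TOP) tract, through which mTOR signalling controls their translation. The genes also leave many processed pseudogenes in the genome, and several carry small nucleolar RNA genes in their introns.

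The 50 bases around the annotated start are shown for 4 members that fell and for 2 that did not pass the test, because the translation of this family is known to be controlled through the pyrimidine tract. They are RefSeq promoter sequences on GRCm38.p6, read 5′ to 3′ on the strand of the gene, from 40 bases before the start to 10 after, with the longest run of C and T letters in capitals.
*Rps25*, chr9:44407674-44407723, plus strand: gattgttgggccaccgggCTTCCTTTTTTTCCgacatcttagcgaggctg
*Rpl22l1*, chr3:28805468-28805517, plus strand: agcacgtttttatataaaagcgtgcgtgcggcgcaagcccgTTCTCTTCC
*Rpl6*, chr5:121204461-121204510, plus strand: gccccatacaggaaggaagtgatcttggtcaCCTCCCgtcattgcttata
*Rpl14*, chr9:120571477-120571526, plus strand: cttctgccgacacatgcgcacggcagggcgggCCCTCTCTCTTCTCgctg
*Rps6*, chr4:86857358-86857407, minus strand: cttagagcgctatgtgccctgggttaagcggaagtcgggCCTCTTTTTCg
*Rplp0*, chr5:115559427-115559476, plus strand: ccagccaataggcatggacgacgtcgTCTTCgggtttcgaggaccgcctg

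The run was 14 letters long in *Rps25* and in *Rpl14*, 9 in *Rpl22l1* and 6 in *Rpl6*, against 10 in *Rps6* and 5 in *Rplp0*. Long and short runs thus occurred both in members that fell and in members that were not called. In *Rps25*, *Rpl6* and *Rplp0* the run ended before the RefSeq start, so an mRNA that begins at that start does not hold it. The stretch shown for *Rps25* lies inside the gene's span, which begins at 44407139. Whether these runs are TOP tracts was not tested. RefSeq promoters matched 67 of the 87 members, with 79 promoters. A run of at least 8 letters that are C or T, on the gene's strand only and from 30 bases before the start to 10 after, was present in 33 of these 79 (41.8%). It was present in 16.9% of all 32851 promoters and in 20.0% of the 75 promoters of mitochondrial ribosomal protein genes. *Rpl7* had no entry.

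After *Snhg18* knockdown most members had fold changes near 0, and a few fell, *Rps25* the furthest. Of the 82 tested members, 5 fell (6.10%) and 0 rose in the edgeR quasi-likelihood test with an adjusted p under 0.05, where 3.71% of all 14531 tested genes fell and 3.65% rose. The number of members that rose was also 0 at an unadjusted p under 0.05, in DESeq2 and in limma-voom. The median log2 fold change (si-*Snhg18* minus si-NC) was -0.02 over the members, with quartiles at -0.14 and 0.07. Over all tested genes the median was 0.01, with quartiles at -0.24 and 0.25. A log2 fold change within 0.1 of 0 was found for 44 members (53.7%) and for 23.1% of all tested genes. The tested members are abundant, with a median of 276 CPM in si-NC cells, and the part of this level was not tested. At an unadjusted p under 0.05 there were 17 members (20.7%), all of them lower, where 24.9% of all tested genes lay under it, 12.1% lower and 12.8% higher. The libraries of the groups did not overlap, with si-*Snhg18* lower, for 22 members (26.8%, against 15.5% of all tested genes), and with si-*Snhg18* higher for 5 (6.10%, against 15.4%).

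**Figure D1:**
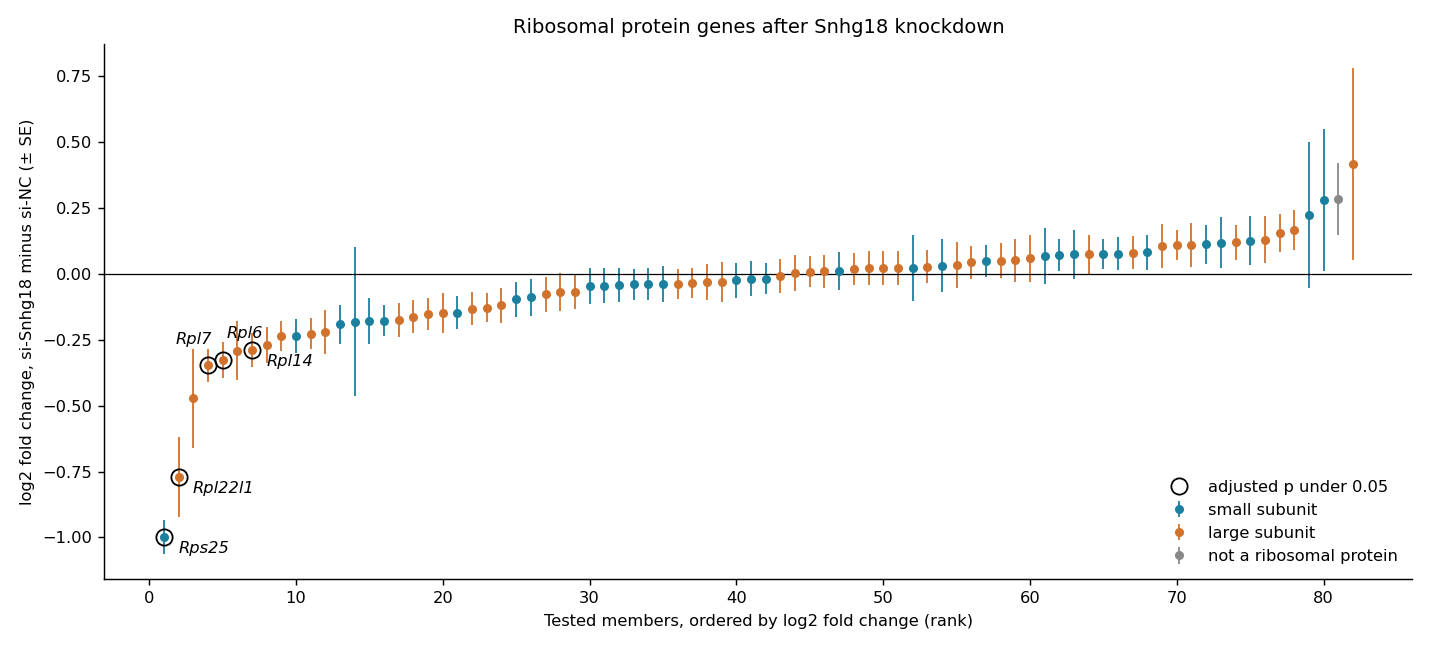
Log2 fold change, si-*Snhg18* minus si-NC, of the 82 tested members in order of size, with bars for the SE of the fit. Colours give the subunit and open circles mark the 5 members with an edgeR adjusted p under 0.05; *Rps25* at -0.999 and *Rpl22l1* at -0.77 lie apart from the other members, most of which lie within 0.25 of 0.

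*Rps25* (ENSMUSG00000009927; GRCm38, chromosome 9 from 44407139 to 44410427, plus strand) encodes a protein of the small subunit head that is needed for initiation at some viral internal ribosome entry sites. Its level was 241, 231 and 243 CPM with si-NC against 123, 122 and 113 CPM after knockdown. Every si-*Snhg18* library was thus far below every si-NC library, and the libraries within a group lay close together. The mean was 238 ± 6.61 CPM in si-NC cells against 119 ± 5.56 CPM after knockdown (SD, n = 3 each). The log2 fold change was -0.999 (SE 0.07, edgeR adjusted p = 0.00498), the lowest among the members. Blocking on the replicate number gave an edgeR adjusted p of 0.000428. Leaving out each library in turn gave -1.02 to -0.96, with edgeR adjusted p from 0.00352 to 0.0700, and *Rps25* had the lowest fold change of all members in each of these 6 fits.

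The change in *Rps25* was also seen relative to the reads on the other members of the same library, without the scaling factors of the fit. *Rps25* took 9.58, 9.33 and 9.75 of every 1000 reads on the other members in si-NC cells and 4.86, 5.18 and 4.73 in si-*Snhg18* cells. The groups did not overlap, and the exact permutation test (two-sided) gave p = 0.1, the smallest that 3 libraries against 3 allow. The neighbours of *Rps25* on the opposite strand, *Trappc4* and *Ccdc84*, overlap 17.2% and 7.66% of its exon bases. *Trappc4*, which encodes a vesicle trafficking protein, was at 46.5 CPM with si-NC against 41.2 CPM after knockdown, with a log2 fold change of -0.18 that did not pass the test (edgeR adjusted p = 0.307). *Ccdc84* was at 6.56 and 7.12 CPM (log2 fold change 0.12, edgeR adjusted p = 0.787). The 8 pseudogenes that share sequence with *Rps25* held only 0.360% as many reads as *Rps25* in si-NC cells.

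**Figure D2:**
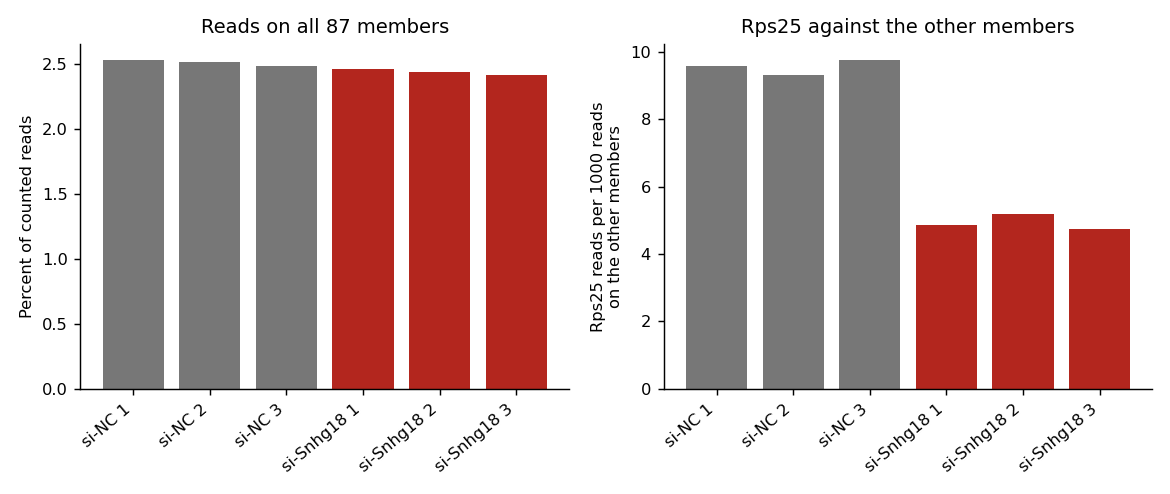
Reads on all 87 members as a percent of counted reads (left) and *Rps25* reads per 1000 reads on the other members (right), 1 bar per library, si-NC in grey and si-*Snhg18* in red. The family's share differs little between libraries (2.41% to 2.53%), whereas the *Rps25* value is 9.33 to 9.75 in si-NC and 4.73 to 5.18 in si-*Snhg18* libraries.

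The other members that fell were all of the large subunit. *Rpl22l1* (ENSMUSG00000039221), a paralog of *Rpl22* that can take its place in the ribosome, was at 30.2, 25.8 and 30.8 CPM with si-NC, against 20.2, 14.3 and 16.3 CPM after knockdown. The log2 fold change was -0.77 (SE 0.15, edgeR adjusted p = 0.0364). *Rps25* and *Rpl22l1* were the only members called with a change of at least 1.5-fold, out of 82, where 1.95% of all tested genes were called lower and 1.72% higher at that size.

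*Rpl7*, *Rpl6* and *Rpl14* encode core proteins of the large subunit and fell by less. *Rpl7* (ENSMUSG00000043716) was at 503, 533 and 500 CPM with si-NC, against 406, 412 and 390 CPM after knockdown (log2 fold change -0.35, SE 0.06, edgeR adjusted p = 0.0289). *Rpl6* (ENSMUSG00000029614) was at 517, 494 and 519 CPM and at 432, 391 and 395 CPM (-0.33, SE 0.07, edgeR adjusted p = 0.0409). *Rpl14* (ENSMUSG00000025794) was at 310, 301 and 312 CPM and at 266, 246 and 243 CPM (-0.29, SE 0.07, edgeR adjusted p = 0.0489). The groups did not overlap for any of these 3 genes, and the adjusted p of *Rpl14* lay just under the threshold.

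**Figure D3:**
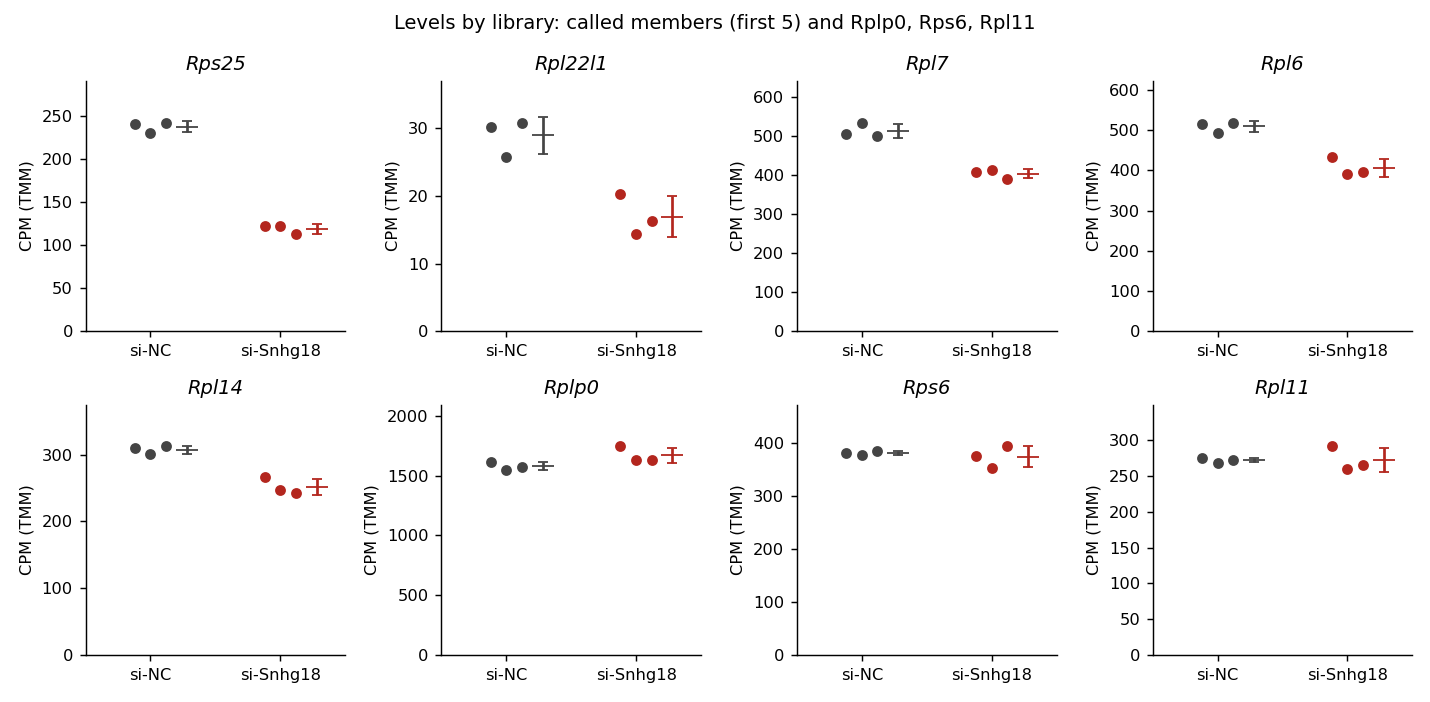
Level in CPM (TMM-scaled) in each library for the 5 members that fell and for *Rplp0*, *Rps6* and *Rpl11*; points are libraries, and the dash with bars beside them is the mean ± SD of 3. In the 5 members that fell the groups do not overlap; for *Rps6* and *Rpl11* they do.

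Same-numbered libraries deviated together, and when these numbers entered the fit as a block 14 members fell (17.1%, against 13.6% of all tested genes) and 0 rose (13.6% of all tested genes). The 5 members above were among the 14. Of the 9 that fell only with the block, all but *Rps27l*, *Rps2* and *Rps18* carry a large subunit symbol. *Rpl10a* (log2 fold change without the block -0.27, edgeR adjusted p 0.0683 without and 0.0113 with the block), *Rpl3*, which lies close to the peptidyl transferase centre (-0.24, 0.0630 and 0.0157), and *Rpl10*, a late-joining large subunit protein (-0.23, 0.0715 and 0.0188), were the nearest to the threshold among the large subunit genes. *Rpl4*, which lines the exit tunnel, had -0.22 (0.166 and 0.0216). *Rpl13a* had -0.47 (0.182 and 0.0199) and *Rpl7l1*, a paralog of *Rpl7*, -0.29 (0.172 and 0.0191), both with overlapping groups. *Rps27l*, the p53-inducible paralog of *Rps27*, had -0.24 (0.0828 and 0.0295), and *Rps2*, near the mRNA entry site, had -0.19 (0.176 and 0.0335). *Rps18*, the last of these 9, had -0.18 (0.123 and 0.0487).

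Which members were called depended on single libraries. Without si-NC 1, si-NC 3 or si-*Snhg18* 3 the edgeR test called 0 members lower and 0 genes in all, with 9, 9 and 10 members and 2512, 2731 and 2464 genes at an unadjusted p under 0.05. Without si-NC 2 it called *Rps25* alone among 158 genes in all, and without si-*Snhg18* 1 *Rps25* and *Rpl22l1* among 319. Without si-*Snhg18* 2 it called 10 members lower, namely the 5 above with *Rpl10*, *Rpl10a*, *Rpl3*, *Rpl4* and *Rps27l*. These were 12.2% of the tested members, close to the 11.7% of all tested genes called lower in that fit, which called 3282 genes in all.

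Members were assigned to a subunit by the Rpl or Rps prefix of the symbol alone, with *Rps19bp1* and *Rps23rg1* left out. By subunit, 1 of 33 tested small subunit members fell (3.03%), *Rps25*, and 4 of 48 large subunit members did (8.33%). Over all tested genes 3.71% fell. The median log2 fold change was -0.02 in both. The groups did not overlap, with si-*Snhg18* lower, for 6 small subunit members (18.2%) and 16 large subunit members (33.3%), where this held for 15.5% of all tested genes. The difference between the subunits was not tested. As a share of all counted reads the members took 2.53%, 2.51% and 2.48% in si-NC cells and 2.46%, 2.44% and 2.41% in si-*Snhg18* cells, a difference of -0.0698 percentage points. Every si-*Snhg18* library was lower, but by little. Without the 5 members that fell the difference was -0.0307 percentage points and the groups overlapped. These 5 were chosen as lower in the same libraries, so a smaller difference was bound to follow and no conclusion is drawn from it. The large subunit alone took 1.47% ± 0.0149 and 1.42% ± 0.0104 (SD, n = 3 each) without overlap, and the small subunit 1.03% ± 0.00817 and 1.01% ± 0.0161 with overlap.

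None of the stalk genes, the Mdm2-binding genes or the well-known small subunit genes described next passed the test. In the stalk, which recruits the GTPases of translation, *Rplp0* was at 1614, 1548 and 1575 CPM with si-NC, against 1744, 1635 and 1629 CPM after knockdown (log2 fold change 0.08, SE 0.06). *Rplp1* (0.17, SE 0.08), *Rplp2* (0.11, SE 0.08) and *Rpl12*, at the base of the stalk (-0.07, SE 0.06), did not pass the test either. *Rpl5* and *Rpl11*, which can bind and inhibit Mdm2 when ribosome assembly fails, had log2 fold changes of -0.17 (SE 0.06) and 0.00 (SE 0.07). The libraries of the groups did not overlap for *Rplp0*, where si-*Snhg18* was higher, or for *Rpl5*, where it was lower.

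In the small subunit, *Rps6*, the protein phosphorylated downstream of mTOR, was at 380, 376 and 384 CPM and at 375, 353 and 393 CPM (log2 fold change -0.02, SE 0.07). *Rps14* (-0.05, SE 0.07) and *Rps19* (0.03, SE 0.10), both linked to anaemias, and *Rpsa*, also known as the laminin receptor (0.08, SE 0.06), were likewise not called. The edgeR adjusted p of these genes and of the stalk and Mdm2-binding genes lay between 0.161 and 0.987. *Rps27a*, which encodes ubiquitin fused to a ribosomal protein, varied widely within groups for its level, with 148, 159 and 89.1 CPM with si-NC against 157, 101 and 90.9 CPM after knockdown. Its coefficient of variation in si-NC cells was 28.5%, whereas the median over tested members was 2.69% in si-NC and 5.28% in si-*Snhg18* cells. Its log2 fold change was -0.18 (SE 0.28).

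Fitted values of paralogs lay apart in some pairs and close together in *Rpl7* and *Rpl7l1*. *Rpl22*, at 128, 126 and 126 CPM with si-NC against 135, 153 and 135 CPM after knockdown, had a log2 fold change of 0.16 (SE 0.07, edgeR adjusted p = 0.248), beside -0.77 for *Rpl22l1*. *Rps27* had 0.11 (SE 0.07) beside -0.24 for *Rps27l*. *Rpl7* and *Rpl7l1* had -0.35 and -0.29. *Rpl36a* had -0.13 (SE 0.06) and *Rpl36al* 0.42 (SE 0.36), the latter at 0.564 CPM in si-NC cells. The differences within these pairs were not tested. *Rpl3*, *Rpl10*, *Rpl39* and *Rps4x* were tested, while *Rpl3l* and *Rpl39l* had at most a few reads and *Rpl10l* none. *Rps23rg1*, the other untested member besides *Rpl24*, had reads in 1 library only. *Rpl39* had a log2 fold change of -0.03 (SE 0.08) and *Rps4x* -0.04 (SE 0.06).

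Levels per exon length spanned a wide range. In si-NC cells *Rplp1* was highest at 1206 RPKM (TMM-scaled CPM per kilobase of deposited exon length), followed by *Rplp0* at 1163, *Rpl41* at 1004, *Rps24* at 910 and *Rps2* at 744 RPKM. The median of the tested members was 301 RPKM in si-NC and 308 RPKM in si-*Snhg18* cells. *Rps25* stood at 186 RPKM, rank 62 of 87, and *Rpl22l1* at 52.4 RPKM. The lowest tested members were *Rpl36al* at 1.07, *Rps10* at 4.61, *Rps27rt* at 9.12, *Rpl13a* at 21.8 and *Rps19bp1* at 23.5 RPKM. *Rpl36al*, *Rps27rt*, *Rps19bp1* and *Rps10* were also among the 5 with the highest fitted log2 fold changes (0.42, 0.28, 0.28 and 0.22), with SEs of 0.36, 0.27, 0.14 and 0.28, and none of them was called. *Rpl41* (0.02) and *Rps24* (0.07) were not called either. The exon lengths are sums over annotated exons, so a gene with long rarely used exons gets too low a value.

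Several of the lowest counts belonged to genes whose annotated exons overlap another gene on the same strand. *Rpl24*, a core large subunit protein, had an average of 0.169 CPM in si-NC cells and was not tested. In GENCODE vM21, 47.0% of its exon bases are also exons of *Gm28037*. The corresponding share was 24.5% for *Rpl36al* (*Gm49383*), 20.6% for *Rps10* (*RPS10-NUDT3*) and 29.4% for *Rpl13a* (*Gm45713*). These were 4 of the 5 members that overlap such a gene, small RNA genes aside; *Rpl19* overlaps *Gm11629* in 3.52% of its exon bases and was at 123 CPM. *Rps27rt* shares 91.1% of its 50-base windows with *Rps27*, and *Rps27rt* had 75 to 104 reads per library where *Rps27* had 1999 to 3041. How reads in such stretches were counted is not given in the sources used here, so the counts of these members and of the related copies are uncertain, and the part of the counting in these values was not tested.

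Reads also fell on pseudogenes that share sequence with members, called copies here. One shared stretch of 50 bases was enough, so the set can hold genes that are not copies of a member. *Thap6*, assigned to *Rpl7l1*, held 11.6 of the 11.7 CPM on the copies of that member in si-NC cells. In all, 1106 pseudogenes shared at least one 50-base stretch with 81 members, 527 of them had reads, and together they took 0.276% ± 0.00136 of counted reads in si-NC and 0.272% ± 0.00374 in si-*Snhg18* cells (SD, n = 3 each). For *Rps10* the copies held far more reads than the gene itself, at 161 CPM against 2.97 CPM in si-NC cells. The copies also exceeded the gene for *Rpl24* (3.28 against 0.169 CPM) and *Rpl17* (132 against 93.1 CPM). Among the members that fell, copies carried 30.2% as many reads as *Rpl6*, 17.6% as many as *Rpl14*, 1.60% as many as *Rpl22l1* and 1.10% as many as *Rpl7*. The copies of *Rpl6* averaged 154 CPM in si-NC and 123 CPM in si-*Snhg18* cells and those of *Rpl14* 54.1 and 45.0 CPM, in both cases without overlap. Of the 180 copies tested, edgeR called 0, with 4 higher and 5 lower (together 5.00%, against 24.9% of all tested genes) at an unadjusted p under 0.05. Many copies had few reads and a wide SE, for example *Gm15710* at 3.17 CPM in si-NC cells with an SE of 0.43. The part of this low depth in the small share was not tested. With the block 6 copies fell (3.33%, against 13.6%), 3 of *Rpl6* and 1 each of *Rpl14*, *Rpl3* and *Rps2*. When the reads of the copies were added to their members, the same 5 members fell, with edgeR adjusted p from 0.00461 (*Rps25*) to 0.0447 (*Rpl22l1*).

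**Figure D4:**
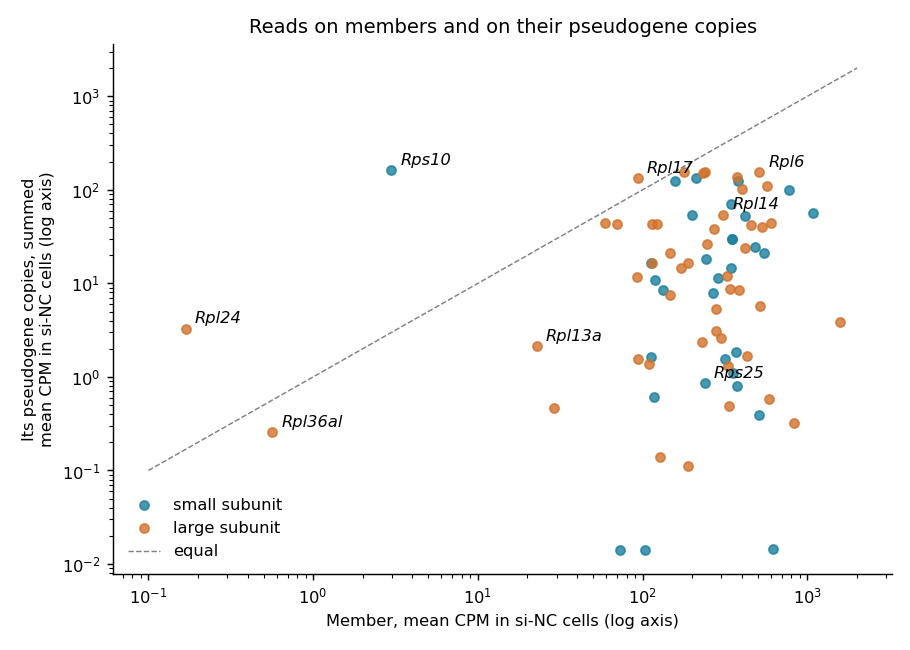
Mean CPM in si-NC cells of each member and the summed mean CPM of the pseudogenes assigned to it, both on log axes, for the 78 members where both are above 0; the dashed line marks equal values and colours give the subunit. *Rps10*, *Rpl24* and *Rpl17* lie above the line, and *Rps25* lies far below it.

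Members with longer coding sequences had lower fold changes. Over the 82 tested members, the Spearman correlation of the log2 fold change with the longest annotated coding sequence was -0.39, and with the deposited exon length it was -0.34. Over 12697 tested protein-coding genes the correlation with exon length was 0.04. The members share libraries and sequence, so these values are descriptions. At 500 bases or more, a limit set after the values were seen, 3 of 33 members fell (9.09%) and the median log2 fold change was -0.13. Under 500 bases 2 of 49 fell (4.08%), *Rps25* and *Rpl22l1*, and the median was 0.02. Over all tested genes 3.71% fell. With the block 10 of the longer (30.3%) and 4 of the shorter members (8.16%) fell, where 13.6% of all tested genes did. Among the 30 members with a small nucleolar RNA gene inside, 1 fell (3.33%) and the median was -0.04, against 4 of 52 (7.69%) and 0.01 for the others.

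**Figure D5:**
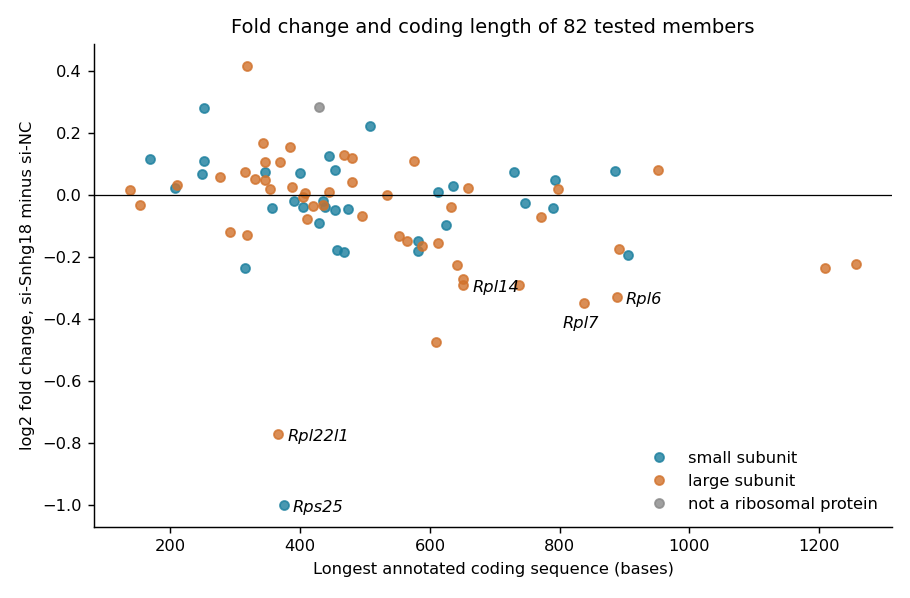
Log2 fold change, si-*Snhg18* minus si-NC, of the 82 tested members against the length in bases of the longest annotated coding sequence; each point is a gene and colours give the subunit. *Rpl7*, *Rpl6* and *Rpl14* lie among the longer members that are mostly below 0, and *Rps25* and *Rpl22l1* are short and lie far below members of like length.

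The genes that work with the ribosome were mostly not called either. *Fau*, outside the naming pattern, did not pass the test (log2 fold change 0.09, SE 0.13). Of 6 elongation factor genes edgeR called 0, with 1 lower (16.7%, against 12.1% of all tested genes) at an unadjusted p under 0.05. Of 15 further TOP mRNAs and ribosome partners, 1 fell (6.67%, against 3.71% of all tested genes). This was *Npm1*, encoding the nucleolar chaperone nucleophosmin, at 485, 503 and 486 CPM with si-NC against 300, 322 and 283 CPM after knockdown (log2 fold change -0.70, SE 0.07, edgeR adjusted p = 0.00768). Of 11 initiation factor genes 1 fell (9.09%, against 3.71% of all tested genes). It was *Eif2s3x*, a subunit of the factor that brings the initiator tRNA (log2 fold change -0.45, SE 0.09, edgeR adjusted p = 0.0363). Of 19 genes of growth control 1 rose (5.26%, against 3.65% of all tested genes) and 0 fell. *Rptor*, the substrate-binding subunit of an mTOR complex, rose from 66.5 ± 2.89 to 86.6 ± 3.53 CPM (SD, n = 3 each; log2 fold change 0.38, SE 0.07, edgeR adjusted p = 0.0282). Under the block 3 growth control genes rose (15.8%) and 1 fell (5.26%), where 13.6% of all tested genes rose and 13.6% fell. In the same fit 3 of the 15 further TOP mRNAs and partners fell (20.0%) and 0 rose. There 1 initiation factor gene (9.09%) and 0 elongation factor genes fell, and 0 of either list rose. These lists are short, so each call describes a single gene and not its list. Of 77 tested mitochondrial ribosomal protein genes 1 fell (1.30%, against 3.71% of all tested genes) and 0 rose (against 3.65%). The gene that fell was *Mrps18b* (log2 fold change -0.49, SE 0.10, edgeR adjusted p = 0.0383). With the block 5 of the 77 rose (6.49%) and 4 fell (5.19%), where 13.6% of all tested genes rose and 13.6% fell. The median log2 fold change of the mitochondrial family was -0.05, with 28.6% within 0.1 of 0, where the cytosolic family had 53.7%. That share was not particular to the cytosolic family. It was 66.7% in the elongation factor list, 53.3% in the further TOP mRNAs and partners and 54.5% in the initiation factor list.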

How the data were processed

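RNA sequencing of si-NC and si-*Snhg18* mPASMCs (3 libraries each) was analysed. The authors prepared stranded mRNA libraries, and the submitters' processing notes name HISAT2 and mm10. They deposited raw counts of reads per gene, without normalization, with exon lengths and GRCm38 positions. The counting program and its strand setting are not given in the sources used here. Groups and replicate numbers came from the sample labels.

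Counts were tested in R 4.3.3 with edgeR 4.0.16 (filterByExpr with a minimum count of 10, TMM, glmQLFit and glmQLFTest, two-sided, Benjamini-Hochberg adjustment over 14531 genes, threshold 0.05). CPM values are TMM-scaled. The common biological coefficient of variation was 0.218. The fits were tested on simulated data with less spread than these libraries and with larger changes than most members had. That is an easier case, so it does not show how often such small changes are found here. Floors of 3 reads cover counting error only, as there were no molecular identifiers. The smallest p of the exact two-sided permutation test of 3 libraries against 3 is 0.1. Members, pathway lists, markers and the naming rule were chosen with earlier results of these data known. The rule names members that were called (with up to 8 called only with the block), the 5 highest and lowest by log2 fold change and by level per length, paralog pairs, stalk and Mdm2-binding genes, 5 well-known small subunit genes, *Rps19bp1* and called pathway genes; *Rps18* was named after its values were seen.

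The pairing of libraries comes from the replicate numbers in the labels. Deviations from the group means of same-numbered libraries correlated at 0.41, 0.74 and 0.36 over all tested genes and at 0.47, 0.33 and 0.47 over the members, so fits with the replicate block are given beside the others.

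Of 55487 gene IDs, 55141 were in GENCODE vM21, which gave exons, coding sequences and 50-base windows shared with pseudogenes. Alternatives were other scaling factors, count filters, DESeq2 1.42.0, limma-voom (limma 3.58.1), the block, other thresholds and leaving out each library. The requirement of 1.5-fold, added pseudogene reads, a minimum of 50 CPM and shares without called members were chosen after seeing the data.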

Additional observations from a re-analysis of the deposited data

How the results depend on the processing

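No member rose under any of the 18 alternatives, and the median log2 fold change of the members stayed between -0.05 and 0.00, turning above 0 without si-*Snhg18* 2 and without si-*Snhg18* 3. The number of members that fell was 4 or 5 under other scaling factors, limma-voom, a minimum count of 30 and added pseudogene reads. It was 3 with no filter on low counts, 8 with DESeq2, 14 with the replicate block, 9 at an adjusted p under 0.1 and 2 with at least 1.5-fold. The block added calls and removed none among the members named. Leaving out each library gave 0 to 10. Over all genes, the numbers higher and lower were 913 and 953 with DESeq2, 1982 and 1972 with the replicate block and 250 and 283 with at least 1.5-fold, and leaving out each library gave 0 to 1545 higher and 0 to 1737 lower. The log2 fold change of *Snhg18* ran from -1.14 to -1.06 when each library was left out and did not pass the test without si-NC 1, si-NC 3 or si-*Snhg18* 3. *Rps25* ran from -1.02 to -0.96 under all 16 alternatives and missed the threshold in those same 3 fits. The difference in the members' share of reads was -0.0307 percentage points without the called members. Leaving out members chosen as lower was bound to shrink it. Among the members that the naming rule takes in, the sign turned for 6, none of them called. For the other members only the fit with added pseudogene reads was compared. There it turned for *Rpl38* (0.03 to -0.07) and *Rps28* (0.02 to -0.01), which were not called either. With no filter on low counts *Rpl11* was at -0.0107. When each library was left out, log2 fold changes ran from -0.0489 to 0.0319 for *Rpl11*, -0.0693 to 0.0237 for *Rpl39*, -0.0419 to 0.0920 for *Rps19*, -0.0464 to 0.436 for *Rps10*, -0.0623 to 0.0116 for *Rps6* and -0.00506 to 0.466 for *Rps27rt*. Apart from these fits with fewer genes or samples, the cause was not tested. The depth limits *Rpl36al*, *Rps10* and *Rps27rt*, which lie under 5 CPM in si-NC cells.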
